A study of Mus musculus with 125 samples.

Results

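The mouse immunity-related GTPase (IRG) loci on chromosome 11 were followed by ATAC-seq, which reads open chromatin from where the Tn5 transposase inserts adapters, in cell lines of B-cell acute lymphoblastic leukaemia (B-ALL) co-cultured with natural killer (NK) cells. The peaks were chosen by position alone. Every consensus peak on chromosome 11 (GRCm38) whose centre fell in a window around Irgm1 to Ifi47 or in a window around Igtp and Irgm2 was taken. This gave 44 of the 256400 consensus peaks, 38 from 48852911 to 49097820 and 6 from 58191029 to 58226055. They lie at and between Irgm1, Tgtp1, Tgtp2, Ifi47, Igtp and Irgm2, and at neighbouring genes of which RefSeq gives Gm5431 (Irgb9b8), Gm12185 (Irgb2b1), 9930111J21Rik1 (Iigp), 9930111J21Rik2 (Irgb5) and Gm12250 (Irgb10) IRG names.

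All leukaemic cells carried BCR/ABLp185 and came from bone marrow of wild-type C57BL/6 mice. Barcoding of a single parental line gave cell lines A and B, and barcoding of another gave C and D. A contrast of A/B with C/D compares 1 parental line with 1 other. The conditions were B-ALL + NK at a first (TP1) and a second (TP2) time point and B-ALL alone at TP1. By the labels TP1 was day 4 and TP2 day 10, apart from experiment 9.7 with days 6 and 16. IL-2-activated NK cells from spleen were added at equal numbers and again at each harvest, all cultures held recombinant human IL-2, and GFP+ leukaemic cells were sorted for ATAC-seq. The labels give no genotype of the NK cells, while the study describes its ATAC-seq comparison in C/D as one with wild-type NK cells. The 125 libraries formed 42 groups over 14 combinations of a line with an experiment, 6 for A/B and 8 for C/D. B-ALL alone at TP2 was not analysed here, so NK-cell exposure and length of culture cannot be told apart there.

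IRG proteins are large GTPases that IFN-γ induces strongly in mice. Tgtp1 and Tgtp2 (both known as Irgb6), Ifi47 (Irgd) and Irgb10 are effectors that coat and disrupt the vacuoles of intracellular parasites and bacteria. Irgm1, Irgm2 and Igtp (Irgm3) sit on membranes of the host cell and hold the effectors inactive there. Their promoters are textbook examples of IFN-γ control through GAS elements and through ISRE elements, which interferon regulatory factors bind.

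The start-site sequences of the genes are shown because the size of the accessibility change differed between them. Sequences are from RefSeq for GRCm38.p6, written 5′ to 3′ on the strand of the gene. The RefSeq promoter table held 6 of the 7 start sites of the 6 genes, and the downstream start of Ifi47 was read from the genome at the RefSeq start site. Capitals mark GAAA NN GAAA (written here with spaces), the ISRE core, and TTCNNNGAA, the GAS core, both searched on both strands of each promoter from 250 bases before to 50 after the start site.
Igtp, chr11:58199492-58199546, plus strand: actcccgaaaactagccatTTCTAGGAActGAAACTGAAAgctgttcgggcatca
Irgm2, chr11:58214883-58214937, plus strand: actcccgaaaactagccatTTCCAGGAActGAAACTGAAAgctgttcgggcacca
Tgtp1, chr11:48992299-48992353, minus strand: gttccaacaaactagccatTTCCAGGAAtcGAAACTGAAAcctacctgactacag
Tgtp2, chr11:49064258-49064312, minus strand: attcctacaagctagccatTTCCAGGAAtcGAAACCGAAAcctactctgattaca
Gm12185, chr11:48927233-48927287, minus strand: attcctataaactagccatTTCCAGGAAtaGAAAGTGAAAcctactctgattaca
Irgm1, chr11:48871420-48871480, minus strand: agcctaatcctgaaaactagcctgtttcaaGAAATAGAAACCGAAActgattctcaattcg
Ifi47 downstream start, chr11:49086899-49086953, plus strand: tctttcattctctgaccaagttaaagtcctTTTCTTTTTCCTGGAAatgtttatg

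Igtp, Irgm2, Tgtp1, Tgtp2 and Gm12185 shared a single layout, the GAS core followed after 2 bases by the ISRE core. The joined pattern was present in 5 of the 32851 RefSeq promoters searched (0.0152%), and these 5 were the promoters listed. The promoters searched left out the whole chromosome that carries the related GTPase genes Iigp1, Gm4951, Gm4841 and F830016B08Rik. Whether these genes hold the pattern was therefore not tested. The pattern was written down after the sequences had been seen. The ISRE core began 34 bases before the start site in Igtp, 64 in Irgm2, 70 in Tgtp2, 75 in Gm12185 and 77 in Tgtp1. Irgm1 held overlapping ISRE-core matches 30 and 24 bases before its start and no GAS core. In the downstream Ifi47 promoter the ISRE-core match lay on the opposite strand and overlapped a GAS-core match, and the upstream Ifi47 promoter held neither. Over all promoters searched the ISRE core occurred in 3.44% and the GAS core in 8.30%. These are letter matches in fixed windows and not measured binding sites.

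Some of the promoters are also near copies of each other. Igtp and Irgm2 were identical at 247 of 264 aligned bases (93.6%), Tgtp2 and Gm12185 at 285 of 295 (96.6%), and Tgtp1 and Tgtp2 at 224 of 269 (83.3%). The other pairs were less alike, from 66.7% of the 9 bases that aligned between Irgm1 and the upstream Ifi47 start to 82.2% of 269 between Tgtp1 and Gm12185. Reads of 50 bases from near copies may be assigned to either. The share of 50-base words in the peak that occur once in the genome was 100% at the Irgm1 start, 89.0% at Igtp, 89.8% at Irgm2, 87.0% at Gm12185, 77.7% at Tgtp1 and 45.7% at Tgtp2. Values of Tgtp2 and of the peaks in and beyond the bodies of Tgtp1 and Tgtp2 are therefore uncertain as to which copy they belong to.

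Per library 3083547 to 13580746 read pairs were counted in consensus peaks. Replicates 2 and 3 of line C with NK cells at TP2 in experiment 9.5, and of line C alone in experiment 9.5.1, agreed within sampling noise, with a chi-square per degree of freedom of 0.827 and 0.853 (other pairs of these groups 1.91 to 3.69). Both pairs were averaged and entered as 1 sample each, so that A/B had 54 samples and C/D 69. The B-ALL marker Cd79a, part of the B-cell receptor complex, averaged 97.4 ± 20.8 CPM at TP1 and 112 ± 29.5 CPM at TP2 in A/B + NK, against 131 ± 32.5 CPM in A/B alone, on the scale described below (SD, n = 6 combinations). In C/D it averaged 93.1 ± 17.4 and 111 ± 31.5 CPM with NK cells, against 94.6 ± 20.5 CPM alone (n = 8). None of 11 B-ALL marker peaks was called, but at the adjusted p alone 9 were lower at TP1 and 7 at TP2 in A/B, where 24.8% and 16% of all tested peaks were, with median log2 fold changes of −0.28 and −0.19. The C/D markers had none lower, 1 higher at TP2 and medians of 0.04 and 0.08. Of 21 NK-cell markers 16 had a peak within 3 kb of the start, 8 of these were tested and none was called (at the adjusted p alone, 2 higher at TP1, and 1 higher and 1 lower at TP2 in A/B, and 1 higher at TP2 in C/D), and Ncr1 and Ifng had no such peak. The summed NK-marker level was 77.8 to 103 CPM at TP1 and 63.5 to 100 CPM at TP2 in A/B + NK, against 73.5 to 87.8 CPM in A/B alone. The C/D range was 77.5 to 94.3 CPM and 71.5 to 120 CPM with NK cells, against 76.7 to 95.5 CPM alone. Of the T-cell markers 1 was tested, in C/D, and not called. Of 4 myeloid marker peaks tested 1 rose, Mpeg1 in A/B at TP1 (log2 fold change 0.73 ± 0.08, adjusted p = 8.36e-12). Below the fold threshold Mpeg1 was also higher in A/B at TP2 (0.44 ± 0.08, adjusted p = 1.43e-05). In C/D it gave 0.52 ± 0.07 (adjusted p = 8.22e-09) at TP1 and 0.575 ± 0.07 (adjusted p = 5.29e-10) at TP2. At the adjusted p alone 2 and 2 myeloid peaks were higher in A/B at TP1 and TP2 and 1 and 1 in C/D, with none lower. The part of the marker changes and of such cells in the results below was not tested.

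The first question was whether the IRG loci opened in B-ALL cells that had met NK cells. Counts were tested over all peaks with edgeR's quasi-likelihood test, and a call needed an adjusted p (Benjamini-Hochberg) no greater than 0.05 and a log2 fold change of at least 0.58 in either direction. Of the 44 peaks 27 passed the filter for A/B and 26 for C/D. The others were too low or were not called as a peak in every replicate of any group. In A/B, 9 of 27 peaks rose at TP1 and 8 rose at TP2, where 6.77% and 5.02% of all 48994 tested peaks were called higher. In C/D, 6 of 26 rose at TP1 and 5 at TP2, where 1.71% and 1.79% of all 55457 tested peaks were called higher. Since a peak called only in co-cultures could still be tested, the filter itself favoured higher values with NK cells at some of these. In A/B 7 of the 27 peaks, and in C/D 5 of the 26, were not called in every replicate of any group alone, and 6 of the 9 and 6 of the 8 called higher in A/B, and 3 of the 6 and 3 of the 5 in C/D, were among them. These were Tgtp1 gene body 2 and the Irgm1 and Gm12250 3′ flanks in both parental lines, and Ifi47 gene body 1 and the Tgtp1 and Tgtp2 3′ flanks in A/B. Of the peaks called in every replicate of a group alone, 3 of 20 rose at TP1 and 2 at TP2 in A/B (2.5% and 1.8% of all such peaks), and 3 of 21 and 2 in C/D (0.707% and 0.901%), all of them starts of Tgtp1, Tgtp2 or Gm12185. This split was made after the data had been seen. With a filter on mean CPM over all samples in place of the peak calls, 12 of 32 rose at TP1 and 10 at TP2 in A/B (background 5.25% and 3.22%), and 9 and 6 of 32 in C/D (1.53% and 1.23%). The TP2 count was 5 for A/B without line A of experiment 9.5, and 3 for C/D without either line C or line D of that experiment. No IRG-locus peak was called lower in edgeR or in DESeq2 (background 1.12% and 1.38% in A/B, 0.11% and 0.957% in C/D). For A/B at TP1, 2 were called lower without replicate 2, 1 without replicate 3 and 1 without line A of experiment 9.6. At an unadjusted p under 0.05, 4 and 4 peaks were lower in A/B at TP1 and TP2 and 3 and 0 in C/D. The adjusted p alone gave 4 and 3 lower in A/B (background 24.8% and 16%) and 1 and 0 in C/D (5.1% and 16%). Over the 20 IRG-locus peaks called in every replicate of a group alone, the median log2 fold change was 0.11 at TP1 and 0.12 at TP2 in A/B, against −0.07 and −0.05 over all such peaks. In C/D the medians over 21 were 0.17 and 0.16, against −0.01 and −0.0008.

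**Figure D1:**
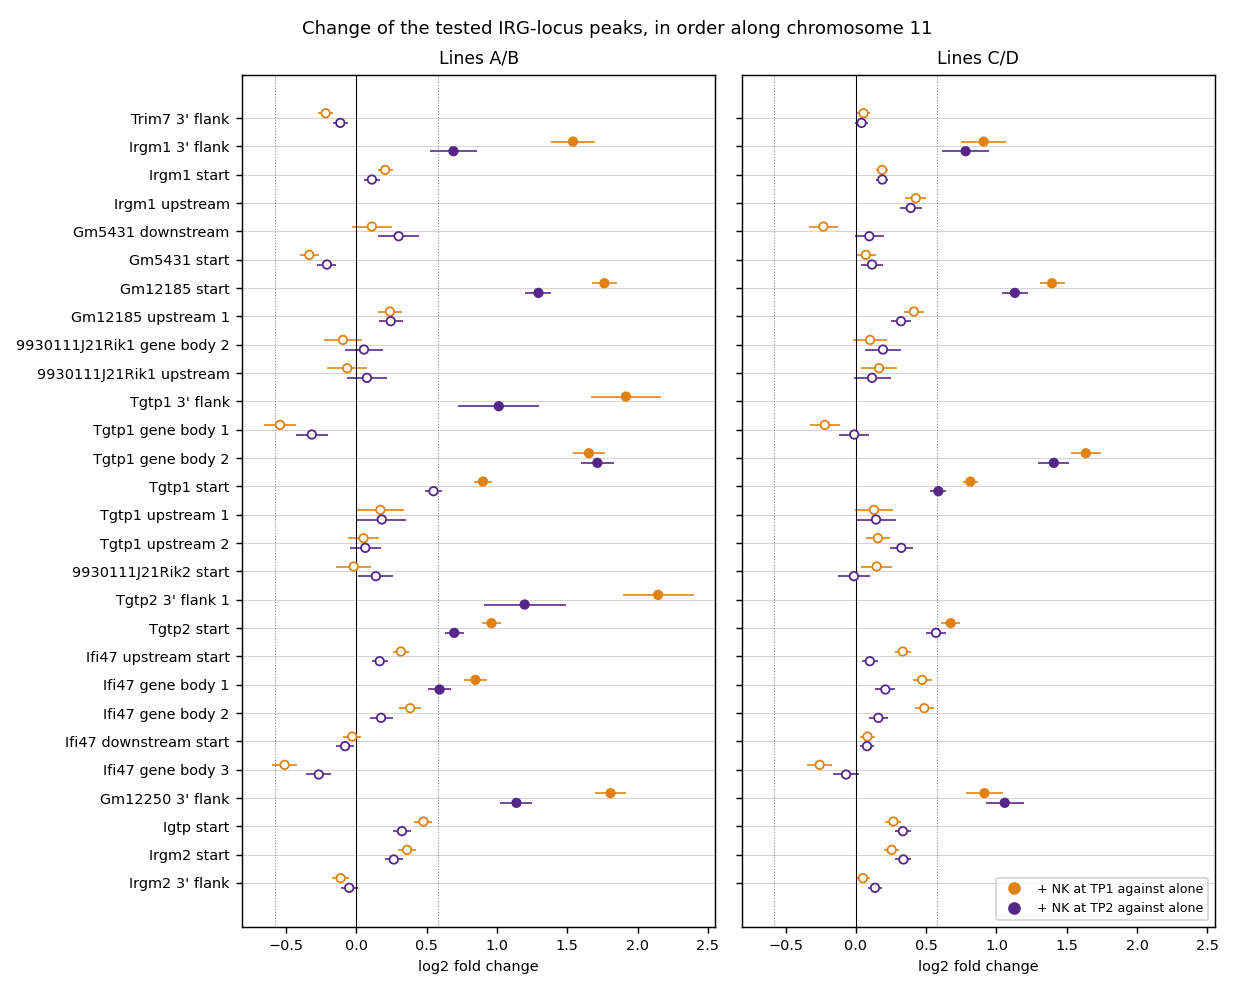
Log2 fold change of B-ALL + NK over B-ALL alone (x axis, bars are ± 1 SE) for the tested IRG-locus peaks in order along the chromosome (y axis), at TP1 and TP2, for A/B on the left and C/D on the right, with filled points for called peaks and dotted lines at ± 0.58. At either time point the starts of Gm12185, Tgtp1 and Tgtp2 and Tgtp1 gene body 2 lie to the right of the Irgm1, Igtp and Irgm2 starts.

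Levels are given as CPM, here the counts scaled to a common sum over the 45571 peaks tested for both A/B and C/D, as mean ± SD over the combinations of line and experiment. This scale was chosen after the data had been seen, because scaling over all 256400 peaks moved the median tested peak by −0.45 to 0.70 log2 units between conditions of a combination, and on this scale by −0.03 to 0.04. Since the 4 lines come from a pair of parental lines and share experiments, the SD describes spread over cultures rather than over independent leukaemias. The main fits took wells as samples, with an effect of each condition common to all experiments. Their SE and adjusted p therefore do not measure the spread of the effect over experiments.

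Of the effector genes, Tgtp1 changed at its start site in both parental lines. In A/B its start peak (11:48991694–48994804, over the first exon) measured 44.6, 61.0 and 68.5 CPM (lowest, median and highest of 18 samples) at TP1 and 33.5, 41.9 and 61.9 CPM at TP2 in B-ALL + NK, against 21.6, 30.6 and 44.9 CPM in B-ALL alone. At TP1 17 of 18 co-cultured samples lay above the highest sample alone, and at TP2 7 of 18 did. The log2 fold change (here and below ± SE) was 0.90 ± 0.06 (adjusted p = 5.05e-19) at TP1, which was called, and 0.55 ± 0.06 (adjusted p = 1.99e-10) at TP2, just under the fold threshold. In C/D the peak averaged 43.9 ± 4.46 CPM at TP1 and 38.3 ± 7.99 CPM at TP2 with NK cells, against 25.4 ± 2.91 CPM alone (n = 8 combinations). All 24 samples at TP1 and 16 of 23 at TP2 exceeded the highest sample alone, and the peak was called at both (log2 fold change 0.81 ± 0.06, adjusted p = 1.75e-20 and 0.59 ± 0.06, adjusted p = 1.48e-13). The TP2 values lay near the fold threshold. For A/B it became 0.64 without replicate 1, past the threshold. For C/D the call was lost, with 0.53 without replicate 1, 0.57 without line C of experiment 9.5, and 0.55, 0.577 and 0.55 without line D of experiments 9.5, 9.6 and 9.7.

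Tgtp2, the near-identical neighbour, rose at its start peak as well (11:49060004–49064636). In A/B it measured 22.7, 29.7 and 34.2 CPM at TP1 and 16.1, 22.8 and 32.6 CPM at TP2 in B-ALL + NK (lowest, median, highest), against 9.58, 14.1 and 18.0 CPM in B-ALL alone. The groups did not overlap at TP1, and at TP2 16 of 18 samples lay above all samples alone. It was called at both time points in A/B (0.96 ± 0.07, adjusted p = 5.89e-19 and 0.70 ± 0.07, adjusted p = 8.88e-13). It was also called for C/D at TP1 (0.67 ± 0.07, adjusted p = 1.16e-12), and at TP2 its log2 fold change of 0.57 ± 0.07 (adjusted p = 7.94e-10) fell just short of the fold threshold. Its lowest, median and highest levels in C/D were 18.2, 22.4 and 31.5 CPM at TP1 and 13.6, 21.2 and 32.7 CPM at TP2 with NK cells, against 7.35, 14.5 and 20.2 CPM alone, with overlap at both time points. The C/D log2 fold change lay close to the threshold, at 0.56 at TP1 without replicate 2 and 0.579 without experiment 9.7, neither called, and at 0.63 at TP2 without replicate 3 and 0.63 without line D of experiment 9.6, both called.

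Gm12185, an IRG gene between Irgm1 and Tgtp1, had the largest log2 fold change among the tested start peaks of the loci (11:48925668–48928802). In A/B it measured 31.8, 40.1 and 48.1 CPM at TP1 and 13.4, 29.3 and 51.3 CPM at TP2 in B-ALL + NK (lowest, median, highest), against 9.49, 11.1 and 14.1 CPM in B-ALL alone, without overlap at TP1. The log2 fold change was 1.76 ± 0.09 (adjusted p = 3.70e-25) at TP1 and 1.30 ± 0.09 (adjusted p = 2.96e-18) at TP2, which is 3.40-fold and 2.45-fold. The C/D samples measured 14.8, 25.1 and 31.9 CPM at TP1 and 10.96, 19.4 and 34.6 CPM at TP2 with NK cells, against 7.85, 9.44 and 12.2 CPM alone. The log2 fold changes were 1.40 ± 0.09 (adjusted p = 8.95e-22) and 1.13 ± 0.09 (adjusted p = 1.19e-16). The peak was called in all these contrasts, and each of the 14 combinations was higher with NK cells at both time points.

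Ifi47, the effector Irgd, has 2 RefSeq start sites, and neither start peak was called. The upstream start (11:49075640–49077613) averaged 20.8 ± 1.09 CPM at TP1 and 18.5 ± 1.70 CPM at TP2 in A/B + NK, against 16.4 ± 1.70 CPM in A/B alone (log2 fold change 0.32 ± 0.06, adjusted p = 3.11e-06 and 0.17 ± 0.06, adjusted p = 0.0200). In C/D the log2 fold change there was 0.33 ± 0.06 (adjusted p = 4.13e-06) and 0.10 ± 0.06 (adjusted p = 0.181). The downstream start (11:49086679–49088769) averaged 29.99 ± 3.42 CPM and 28.4 ± 2.65 CPM in A/B + NK, against 29.96 ± 4.00 CPM alone. Its 95% intervals of the log2 fold change were −0.16 to 0.10 at TP1 and −0.21 to 0.05 at TP2 in A/B, while C/D gave −0.02 to 0.18 and −0.02 to 0.18.

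A peak between the Ifi47 starts, in the gene body (11:49080597–49082631), rose in A/B, where it was tested through its calls in co-culture. It measured 13.7, 19.0 and 25.3 CPM at TP1 and 10.1, 15.1 and 21.2 CPM at TP2 in A/B + NK (lowest, median, highest), against 7.70, 9.90 and 14.4 CPM in A/B alone. The log2 fold change was 0.85 ± 0.08 (adjusted p = 1.75e-13) at TP1 and 0.59 ± 0.08 (adjusted p = 4.84e-08) at TP2, both called. The TP2 call was lost without replicate 1 (0.55), without line A (0.56) and without line B (0.56) of experiment 9.5. The C/D values were 0.47 ± 0.07 (adjusted p = 1.38e-07) and 0.21 ± 0.07 (adjusted p = 0.0167), not called.

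None of the start peaks of the regulators was called. The Irgm1 start peak (11:48869248–48873161) was the most open per length of the start peaks of the 6 genes, at 16.5 CPM per kb in A/B alone, against 14.3 at the downstream Ifi47 start, 10.0 at Tgtp1, 8.31 at the upstream Ifi47 start, 7.29 at Irgm2, 6.62 at Igtp and 3.10 at Tgtp2. It averaged 75.9 ± 10.0 CPM at TP1 and 70.7 ± 12.5 CPM at TP2 in A/B + NK, against 64.5 ± 5.73 CPM alone, and only 7 and 6 of 18 samples lay above the highest sample alone. The log2 fold change was 0.20 ± 0.05 (adjusted p = 0.00154) at TP1 and 0.11 ± 0.05 (adjusted p = 0.123) at TP2. The C/D values were 0.19 ± 0.04 (adjusted p = 6.76e-04) and 0.19 ± 0.04 (adjusted p = 3.76e-04). The difference was past the adjusted p threshold in 3 of these 4 contrasts and below the fold threshold in all.

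Igtp and Irgm2, which share their promoter layout, gave intermediate values. The Igtp start peak (11:58198653–58201982) measured 22.3, 32.3 and 38.3 CPM at TP1 and 21.2, 27.5 and 39.8 CPM at TP2 in A/B + NK (lowest, median, highest), against 17.1, 22.3 and 25.6 CPM in A/B alone, with 17 and 11 of 18 samples above the highest alone. Its log2 fold change was 0.48 ± 0.06 (adjusted p = 6.50e-09) and 0.32 ± 0.07 (adjusted p = 6.58e-05) in A/B, while C/D gave 0.27 ± 0.06 (adjusted p = 3.81e-04) and 0.33 ± 0.06 (adjusted p = 6.71e-06). The Irgm2 start peak (11:58213693–58216478) averaged 26.9 ± 3.20 CPM at TP1 and 25.1 ± 4.00 CPM at TP2 in A/B + NK, against 20.3 ± 2.54 CPM alone. Its log2 fold change was 0.36 ± 0.06 (adjusted p = 2.32e-06) and 0.27 ± 0.06 (adjusted p = 7.27e-04) in A/B, while C/D gave 0.25 ± 0.06 (adjusted p = 4.45e-04) and 0.34 ± 0.06 (adjusted p = 2.57e-06). All 8 values passed the adjusted p threshold and none reached the fold threshold, so neither start was called. Igtp, Irgm2, Tgtp1, Tgtp2 and Gm12185 thus shared the joined motif while their TP1 log2 fold changes in A/B ran from 0.36 to 1.76.

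**Figure D2:**
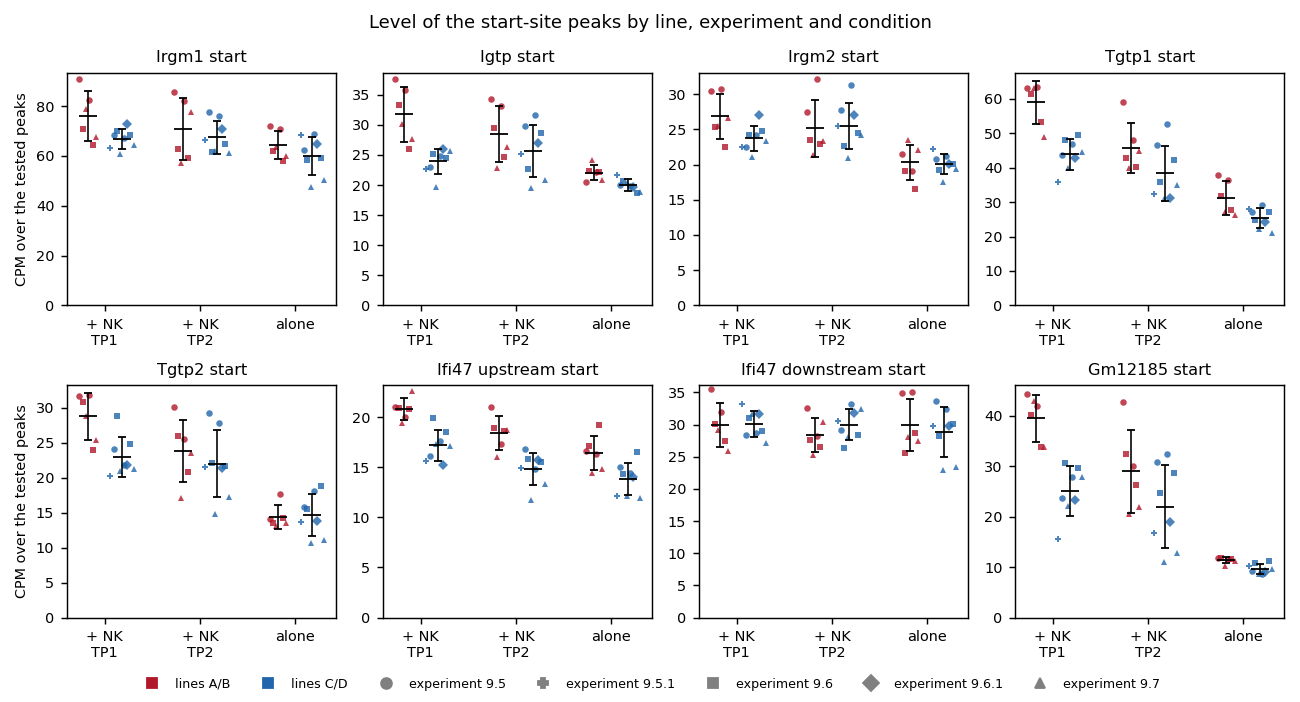
CPM (y axis, counts scaled to the tested peaks) of the start peaks of the 6 genes and of Gm12185 with NK cells at TP1, with NK cells at TP2 and alone (x axis). Each point is the mean of a line in an experiment (colours for A/B and C/D, symbols for experiments), and black bars are the mean and SD. The Tgtp1 points of A/B average 59.0 CPM at TP1 and 45.8 CPM at TP2 with NK cells, against 31.2 CPM alone, while the downstream Ifi47 start averages 29.99 and 28.4 CPM, against 29.96 CPM.

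Larger log2 fold changes than at most start sites lay inside and beyond the genes, at peaks that were tested through the co-cultures in which they were high, so their calls are a description. The second Tgtp1 gene-body peak (11:48989480–48990673) measured 6.54, 9.85 and 12.4 CPM at TP1 and 6.54, 10.0 and 15.2 CPM at TP2 in A/B + NK (lowest, median, highest), against 1.66, 3.12 and 4.24 CPM in A/B alone. No sample with NK cells overlapped those alone, in A/B at either time point or in C/D at TP1. Its log2 fold change was 1.65 ± 0.12 (adjusted p = 1.10e-18) at TP1 and 1.71 ± 0.12 (adjusted p = 5.59e-19) at TP2 in A/B, while C/D gave 1.64 ± 0.11 (adjusted p = 3.58e-21) and 1.41 ± 0.11 (adjusted p = 4.51e-17). Of the 50-base words in this peak 57.9% were unique in the genome. The adjacent first gene-body peak (11:48988114–48989167) went the other way in A/B, at 3.94 ± 0.508 CPM at TP1 and 4.46 ± 0.498 CPM at TP2 with NK cells, against 5.61 ± 0.814 CPM alone. Its log2 fold change of −0.54 ± 0.11 (adjusted p = 7.80e-05) at TP1 stayed within the fold threshold, and only 30.5% of its words were unique.

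Some peaks just past the 3′ ends of IRG genes also rose, each of them tested through co-cultures only. The Irgm1 3′ flank (11:48862941–48864998, 247 bp past the RefSeq gene end but centred in an exon of the longer Irgm1 model of GENCODE) measured 5.79, 15.2 and 22.1 CPM at TP1 and 3.18, 6.69 and 20.8 CPM at TP2 in A/B + NK (lowest, median, highest), against 2.32, 4.12 and 7.54 CPM in A/B alone. At TP2 7 of 18 samples lay above all those alone, against 17 of 18 at TP1. The log2 fold change was 1.54 ± 0.16 (adjusted p = 9.96e-13) and 0.69 ± 0.17 (adjusted p = 8.90e-04) in A/B, while C/D gave 0.91 ± 0.16 (adjusted p = 1.15e-05) and 0.78 ± 0.16 (adjusted p = 1.47e-04), all called. At TP2 the call was lost for A/B without line A of experiment 9.5 (0.42), and for C/D without line C (0.56) or line D (0.57) of that experiment. Of its 50-base words 99.6% were unique in the genome. Its log2 fold change exceeded that at the Irgm1 start in each of the 4 contrasts, an order that the filter favoured. At TP2 this order did not hold in every combination. In line B of experiment 9.7 the level with NK cells over that alone was 0.83 at the flank and 1.29 at the start.

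The Gm12250 3′ flank (11:58191029–58194331, 831 bp past the end of Irgb10) lies upstream of Igtp and was also called in all 4 contrasts. It measured 12.8, 22.3 and 29.1 CPM at TP1 and 7.18, 11.9 and 25.0 CPM at TP2 in A/B + NK, against 2.78, 5.37 and 8.13 CPM in A/B alone (lowest, median, highest), without overlap at TP1. The log2 fold change was 1.81 ± 0.11 (adjusted p = 6.43e-22) and 1.14 ± 0.11 (adjusted p = 1.43e-12) in A/B, while C/D gave 0.91 ± 0.13 (adjusted p = 1.50e-07) and 1.06 ± 0.14 (adjusted p = 2.95e-09). The 3′ flanks of Tgtp1 (11:48983562–48985219) and Tgtp2 (11:49055444–49056397) were tested in A/B alone and were called at both time points. They were low, with counts down to 7 at TP1 in A/B + NK and to 0 in A/B alone, and held 17.2% and 23.9% unique words. Their log2 fold changes were 1.92 ± 0.25 (adjusted p = 3.82e-09) at TP1 and 1.01 ± 0.29 (adjusted p = 0.00459) at TP2 for Tgtp1, and 2.15 ± 0.25 (adjusted p = 1.66e-10) and 1.20 ± 0.29 (adjusted p = 9.61e-04) for Tgtp2. For Tgtp1 the TP2 value was 0.72 without line A of experiment 9.5 and 0.85 without replicate 1, neither called.

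The remaining large peaks of the windows were not called. The peak with the highest CPM, 11:48852911–48859217 beyond Trim7, averaged 97.2 ± 6.30 CPM at TP1 and 104 ± 8.85 CPM at TP2 in A/B + NK, against 111 ± 13.4 CPM in A/B alone (log2 fold change −0.22 ± 0.05, adjusted p = 5.30e-04 and −0.11 ± 0.05, adjusted p = 0.0939). The Gm5431 start, also at an IRG gene, gave −0.34 ± 0.07 (adjusted p = 3.70e-05) and −0.21 ± 0.07 (adjusted p = 0.0132) in A/B, while C/D gave 0.07 ± 0.07 (adjusted p = 0.561) and 0.11 ± 0.08 (adjusted p = 0.238). The Irgm2 3′ flank gave −0.11 and −0.05 in A/B, while C/D gave 0.05 and 0.14. The second Ifi47 gene-body peak gave 0.38 and 0.18 in A/B, while C/D gave 0.49 and 0.16, and the third −0.51, −0.27, −0.26 and −0.07 (log2 fold changes at TP1 and TP2). Large peaks of the same windows thus had log2 fold changes of both signs. The other tested peaks (8 for A/B and 9 for C/D) ran from −0.54 to 0.24 at TP1 and −0.32 to 0.30 at TP2 in A/B, and from −0.23 to 0.43 and −0.01 to 0.39 in C/D. The 16 peaks tested in neither averaged 0.201 to 5.87 CPM over all samples.

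The broad peaks that the authors called in each library rest on the same reads and also decided which peaks were tested, so they describe the same change and do not add to it. A call here is an overlap of at least 1 base, and the counts in this paragraph hold for that overlap only. Under the stricter overlap described with the processing below, far fewer peaks were called in every library. The contrasts in this paragraph are therefore not claimed for the stricter overlap. Tgtp1 gene body 2 was called as a peak in 26 of 42 libraries at TP1 and 26 of 42 at TP2 in B-ALL + NK, against 0 of 41 in B-ALL alone. The Irgm1 3′ flank was called in 30 and 13 of 42, against 1 of 41 alone. The Gm12250 3′ flank was called in 38 and 34 of 42, against 10 of 41 alone, and the Igtp 3′ flank 2 (11:58210245–58211347) in 11 and 6, against 0 alone. The Tgtp1 gene body 1 peak showed the reverse, with calls in 12 and 17 of 42 libraries, against 37 of 41 alone. The start peaks of the 6 genes were called in all 42 libraries at TP1 and all 42 at TP2 with NK cells, against at least 40 of 41 alone.

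**Figure D3:**
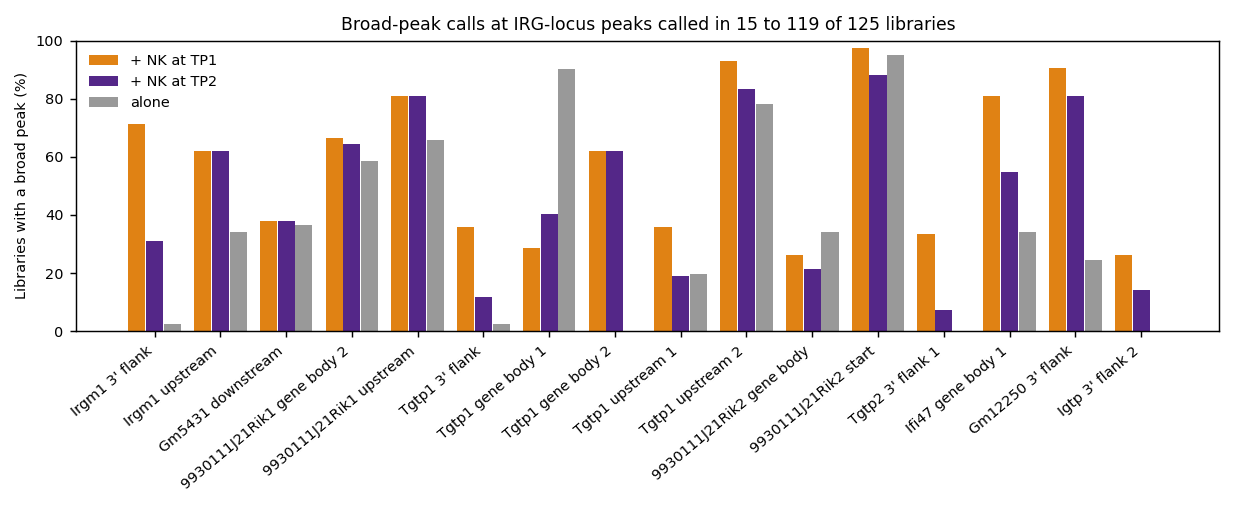
Share of libraries in percent (y axis) in which a broad peak of that library overlapped each IRG-locus peak by at least 1 base (x axis, peaks whose calls varied between libraries), for B-ALL + NK at TP1 (of 42), B-ALL + NK at TP2 (of 42) and B-ALL alone (of 41). The Irgm1 3′ flank was called in 30 and 13 libraries with NK cells, against 1 alone, and Tgtp1 gene body 1 in 12 and 17, against 37.

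The second question was whether the change held with further co-culture. Between TP2 and TP1 in A/B + NK 4 of 27 peaks fell and none rose (background 1.48% lower and 0.122% higher). DESeq2 called none higher either, and 1 was higher at an unadjusted p under 0.05. The 4 were 3′ flanks, of Irgm1 (log2 fold change −0.85 ± 0.14, adjusted p = 1.82e-05), Gm12250 (−0.67 ± 0.10, adjusted p = 7.57e-07), Tgtp1 (−0.90 ± 0.21, adjusted p = 0.00190) and Tgtp2 (−0.95 ± 0.21, adjusted p = 7.31e-04). The Tgtp1 start gave −0.35 ± 0.06 (adjusted p = 2.64e-05), below the fold threshold, and Tgtp1 gene body 2 gave 0.06 ± 0.10 (adjusted p = 0.705). Of these 4 the Gm12250 flank alone was called in every replicate of a TP2 group (1 of 21 such peaks lower, background 0.595%), and the other 3 were tested through TP1, where they were high, so that a lower TP2 was favoured. With the filter on mean CPM 4 of 32 were lower (1.35%). In C/D no IRG-locus peak was called between the time points, in edgeR or in DESeq2 (background 0.225% higher and 0.404% lower). At an unadjusted p under 0.05, 4 peaks there were higher and 6 lower at TP2. The adjusted p alone gave 1 higher and 5 lower (background 14.1% and 13.6%).

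Experiment 9.7 was sampled later than the others, on day 16 at TP2 in place of day 10, and at some peaks the effect of NK cells at TP2 differed between them. The study's methods give later days for the second harvest than the labels, which are used here. In A/B the Irgm1 3′ flank had a log2 fold change of −0.21 on day 16 and 1.18 on day 10 (difference −1.40 ± 0.31, adjusted p = 0.00167). In C/D it was −0.61 on day 16 and 1.20 on day 10 (difference −1.81 ± 0.32, adjusted p = 1.01e-05). In both parental lines this peak rose on day 10, and on day 16 its log2 fold change was below 0. The Gm12250 3′ flank gave 0.65 and 1.42 in A/B, while C/D gave −0.11 and 1.44. Both of these 3′ flanks were tested through co-cultures in which they were high, so their differences are a description. At the Gm12185 start the effect in C/D was 0.42 on day 16 and 1.36 on day 10 (difference −0.94 ± 0.16, adjusted p = 4.12e-06).

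Over all tested IRG-locus peaks the TP2 difference between day 16 and day 10 was called lower for 4 A/B peaks (background 8.25%) and for 4 C/D peaks (14.6%), and called higher for 4 C/D peaks (8.56%) and 0 A/B peaks (2.71%). As shares of the tested IRG-locus peaks these are 14.8% for A/B and 15.4% in each direction for C/D, and the C/D share called lower is close to the background. The starts of Tgtp1 and Tgtp2 were not among them. Their differences were 0.17 ± 0.13 (adjusted p = 0.369) and −0.17 ± 0.14 (adjusted p = 0.405) in A/B, while C/D gave 0.06 ± 0.12 (adjusted p = 0.703) and 0.02 ± 0.15 (adjusted p = 0.926). Tgtp1 gene body 2 gave −0.30 in A/B, while C/D gave −0.14. At TP1, day 6 against day 4, no IRG-locus peak differed by these thresholds (unadjusted p under 0.05 for 6 of 27 peaks for A/B and 8 of 26 for C/D). The background was 0.284% higher and 0.322% lower for A/B, and 0.471% and 0.204% for C/D. At the adjusted p alone 0 A/B peaks differed (background 0.467% higher and 0.427% lower), and 1 C/D peak was higher (0.792% and 1.1%). The share of reads in tested peaks moved with the same split. At TP2 with NK cells it was 82.4% to 86.7% in the 4 groups of experiment 9.7, against 75.2% to 82.0% in its groups alone, and 67.7% to 81.4% in the other experiments, against 72.8% to 83.2% alone. Its part in the difference was not tested. The day of sampling and the experiment cannot be told apart.

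**Figure D4:**
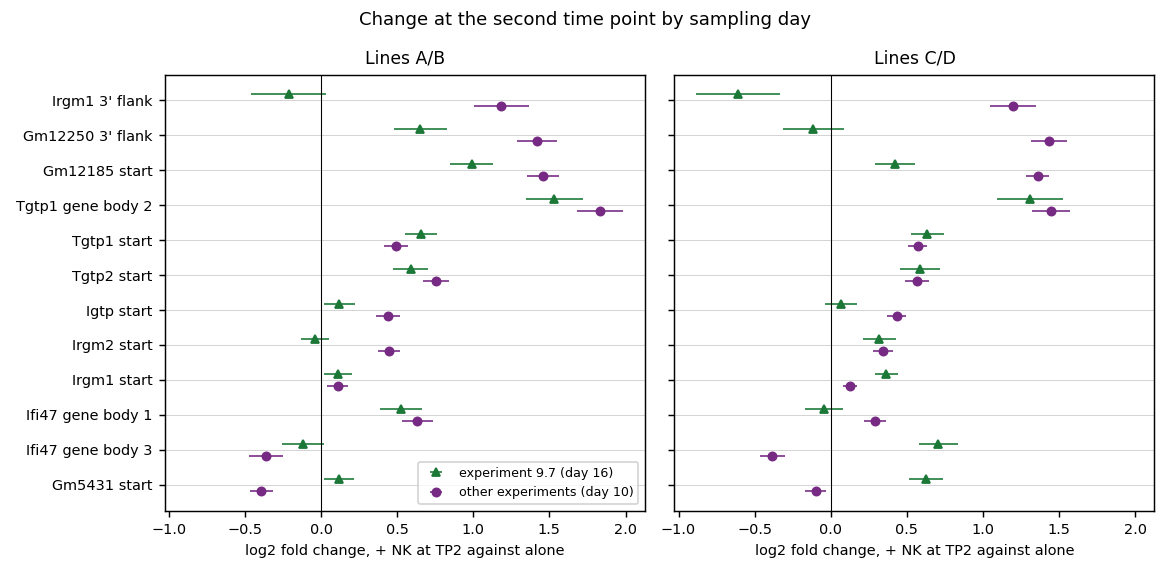
Log2 fold change of B-ALL + NK over B-ALL alone at TP2 (x axis, bars are ± 1 SE) in experiment 9.7 (day 16) and in the other experiments (day 10) for IRG-locus peaks (y axis), for A/B on the left and C/D on the right. The Irgm1 3′ flank of C/D lies at −0.61 on day 16 and 1.20 on day 10, and the Tgtp1 and Tgtp2 starts differ between the days by less than the fold threshold.

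The third question was whether the parental lines differed. At TP1 the effect of NK cells was larger in A/B than in C/D at 2 of 25 peaks tested in both (background 2.67%) and smaller at none (0.366%). The 2 were the Gm12250 3′ flank (difference 0.93 ± 0.19, adjusted p = 2.92e-04) and the Irgm1 3′ flank (0.67 ± 0.24, adjusted p = 0.0399). Both were tested through co-cultures in which they were high, so these differences are a description. The Ifi47 gene-body peak, called in A/B and not in C/D, differed by 0.41 ± 0.11 (adjusted p = 0.00385) at TP1 and 0.40 ± 0.11 (adjusted p = 0.00546) at TP2, past the adjusted p but not the fold threshold. In A/B this peak too was tested through co-cultures in which it was high, so its differences are also a description. The Tgtp1 start differed by 0.13 ± 0.08 (adjusted p = 0.268), the Tgtp2 start by 0.33 ± 0.10 (adjusted p = 0.0113) and the Gm12185 start by 0.41 ± 0.13 (adjusted p = 0.0231) at TP1. Without replicate 1 none was called at TP1, and without replicate 2 or replicate 3, 1 was each time. With a replicate block 1 was called. At TP2 no difference was called (background 2.43% higher and 1.39% lower), with 4 of 25 peaks at an unadjusted p under 0.05. The adjusted p alone gave 1 larger and 1 smaller in A/B (background 8.48% and 12.7%).

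Between the partner lines of a parental line no IRG-locus peak was called. The Tgtp1 start averaged 62.7 ± 0.983 CPM at TP1 and 47.2 ± 10.4 CPM at TP2 in line A + NK, against 32.2 ± 5.35 CPM in line A alone (n = 3 experiments). In line B it averaged 55.3 ± 7.46 and 44.4 ± 3.99 CPM with NK cells, against 30.1 ± 5.52 CPM alone. The means of lines A and B differed by less than the larger of their SDs in all conditions. In line C it averaged 41.9 ± 5.24 and 36.4 ± 7.14 CPM with NK cells, against 25.5 ± 2.65 CPM alone (n = 4). In line D it averaged 45.9 ± 2.84 and 40.3 ± 9.38 CPM, against 25.4 ± 3.57 CPM alone. The TP1 log2 fold change of this peak was 0.96 ± 0.09 in A, 0.84 ± 0.09 in B, 0.74 ± 0.08 in C and 0.89 ± 0.08 in D. At an unadjusted p under 0.05, 1 and 1 of 27 peaks differed between A and B at TP1 and TP2, and 1 and 1 of 26 between C and D. Over all peaks no difference was called at TP1 (0%), and at TP2 0.645% and 0.9% were called higher and lower in A than in B, and 0.00361% and 0.027% in C than in D. DESeq2 was not run on these line contrasts.

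In B-ALL alone no IRG-locus peak was called between the parental lines. Over experiments 9.5, 9.6 and 9.7 0 of 25 peaks were called between A/B and C/D, while 3.1% and 7.44% of all peaks were called higher and lower in A/B. At an unadjusted p under 0.05, and also at the adjusted p alone, 10 peaks were higher and 1 lower in A/B. At the adjusted p alone 27.4% and 24% of all tested peaks were higher and lower. The Tgtp1 start was 0.32 ± 0.06 (adjusted p = 2.58e-06) log2 units higher in A/B, the Gm12185 start 0.26 ± 0.07 (adjusted p = 0.00134) and the Igtp start 0.18 ± 0.06 (adjusted p = 0.0125). These differences were smaller than the TP1 effect of NK cells at Tgtp1 and Gm12185 in either parental line.

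Related genes elsewhere in the genome were set beside the IRG loci through the peak nearest to each start site. The list was assembled with earlier results of these data known. Of 18 other GTPase genes of related families, 17 were tested through 15 peaks, since Gbp4, Gbp8 and Gbp9 shared 1. In A/B 9 of the 15 peaks rose at TP1 and 7 at TP2, and in C/D 6 rose at each, with none called lower. The median log2 fold changes over the 17 genes were 0.68 and 0.44 in A/B, while C/D gave 0.53 and 0.27, against −0.02 to 0.01 over all peaks. At the adjusted p alone 15 and 11 genes were higher in A/B (background 19.2% and 14.8%), and 14 and 10 in C/D (9.34% and 18.5%). On the same measure 2 were lower in A/B at each time point (24.8% and 16%) and 0 in C/D. The 2 were Irgc1 (−0.51 at TP1 and −0.32 at TP2) and Irgq (−0.24 and −0.15). The largest changes of the list were at Gm4951 (log2 fold change 4.00 at TP1 and 3.37 at TP2 in A/B, while C/D gave 2.80 and 2.47) and Iigp1, the effector IRG gene Irga6 (3.78 and 3.18 in A/B, while C/D gave 3.03 and 2.74). Gm4841 and F830016B08Rik gave 2.16 to 3.32 over the 4 contrasts. All 4 were above every start peak on chromosome 11 described here. The guanylate-binding protein genes Gbp6 (1.99 and 1.73 in A/B, while C/D gave 1.67 and 1.39) and Gbp10 (2.26 and 1.54 in A/B, while C/D gave 1.36 and 1.08) came next. Gbp proteins work with IRG effectors on parasite vacuoles.

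Among the genes that carry the IFN-γ signal, none of 16 tested start peaks of the receptor, kinase and transcription factor list was called in any of the 4 contrasts, with medians of 0.02 and −0.04 in A/B, while C/D gave 0.06 and 0.08. At the adjusted p alone, 4 of them were higher at TP1 (background 19.2%) and 3 at TP2 (14.8%) in A/B, while C/D had 5 (9.34%) and 6 (18.5%). On the same measure 5 and 2 were lower in A/B (24.8% and 16%), while C/D had 0 (5.1%) and 2 (16%). Irf9, an interferon regulatory factor that binds ISRE elements, gave 0.56 and 0.47 in A/B, while C/D gave 0.40 and 0.37, all below the fold threshold. Of 13 genes of the autophagy and ubiquitin machinery that IRG proteins work with, such as Atg5 and Gabarapl2, none was called. At the adjusted p alone 4 were higher in A/B at TP1 (background 19.2%). On the same measure 2 were lower in A/B at TP2 (background 16%), 1 in C/D at TP1 (5.1%) and 8 in C/D at TP2 (16%). Their medians at TP1 and TP2 were −0.01 and −0.07 in A/B, while C/D gave −0.01 and −0.12. DESeq2 was not run for these list counts.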

How the data were processed

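The authors ran the Nextflow ATAC-seq pipeline, with alignment to GRCm38 by STAR (version not given in the sources used here), Picard 2.27.4 and broad peaks by MACS2 2.2.7.1. Per the study's methods the artefact regions removed were those of a GRCh38 (human) list. The authors deposited raw counts of read pairs per consensus peak from featureCounts 2.0.1, each pair assigned to every peak holding a fraction of at least 0.2 of it. The deposited broad-peak lists of each library hold a fold enrichment (a ratio) and the −log10 of the q-value per peak, and reach down to a −log10 q of 1.0. No shift of read ends is recorded.

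Each replicate was a separate culture well by the study's methods. To be tested, a peak had to overlap broad peaks of all replicates in 1 or more groups of A/B (or of C/D), and to pass edgeR's filterByExpr. The fit (edgeR 4.0.16 in R 4.3.3, quasi-likelihood, TMM) had terms for each combination of line and experiment and for condition, A/B apart from C/D. Differences between effects used interaction terms. Levels (CPM) are counts scaled to the sum over the peaks tested for both A/B and C/D. Depth ranged from 3083547 to 13580746 counts per library, and the common biological coefficient of variation was 0.128 for A/B and 0.139 for C/D. Scripts were tested on simulated counts.

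The peaks named in full were those nearest the start sites of the 6 genes, the 8 other members with the most reads, and called members. The members and gene lists were chosen with earlier results of these data known. Alternatives were DESeq2 1.42.0, other scalings and filters, left-out replicates, combinations and experiments, a replicate block, and separate use of near-identical libraries. Replicate numbers did not pair the samples: deviations of same-numbered libraries correlated at −0.468 to 0.455 over 124 pairs.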

Additional observations from a re-analysis of the deposited data

Results flagged for a closer look

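The effect of NK cells differed between groups, by a test of the difference itself in edgeR (Benjamini-Hochberg adjusted p up to 0.05, difference of at least 0.58 log2 units in either direction), at 14 combinations of peak and contrast. At TP1 the effect was larger in A/B than in C/D at the Gm12250 3′ flank (difference 0.93 ± 0.19 SE, adjusted p = 2.92e-04) and the Irgm1 3′ flank (0.67 ± 0.24 SE, adjusted p = 0.0399). Both flanks were tested through co-cultures in which they were high, so these differences are a description.

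The other 12 concern TP2, day 16 of experiment 9.7 against day 10 of the other experiments. The 3′ flanks among them were tested through co-cultures in which they were high, so their differences are a description. The Tgtp1 3′ flank also had samples without a read. In A/B the effect was smaller on day 16 at the Irgm1 3′ flank (difference −1.40 ± 0.31 SE, adjusted p = 0.00167), the Gm12250 3′ flank (−0.76 ± 0.22 SE, adjusted p = 0.0118), the Tgtp1 3′ flank (−1.73 ± 0.57 SE, adjusted p = 0.0245) and a peak downstream of Gm5431 (−0.76 ± 0.29 SE, adjusted p = 0.0484). In C/D it was smaller at the Irgm1 3′ flank (−1.81 ± 0.32 SE, adjusted p = 1.01e-05), the Gm12250 3′ flank (−1.55 ± 0.24 SE, adjusted p = 1.02e-06), the Gm12185 start (−0.94 ± 0.16 SE, adjusted p = 4.12e-06) and the Gm5431 downstream peak (−0.71 ± 0.22 SE, adjusted p = 0.00829). It was larger on day 16 in C/D at the Gm5431 start (0.73 ± 0.13 SE, adjusted p = 1.65e-05), Ifi47 gene body 3 (1.09 ± 0.15 SE, adjusted p = 1.82e-07), Tgtp1 gene body 1 (0.84 ± 0.22 SE, adjusted p = 0.00155) and 9930111J21Rik1 gene body 2 (0.72 ± 0.28 SE, adjusted p = 0.0294). The day 16 effects of these last 4 peaks were 0.63, 0.71, 0.60 and 0.72, and their day 10 effects −0.10, −0.38, −0.24 and −0.01.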

How the results depend on the processing

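Counts of called IRG-locus peaks against B-ALL alone and between TP2 and TP1 were the same with DESeq2 and with DESeq2 size factors. For the differences of A/B from C/D and for B-ALL alone only the size factors were tried, with the same counts. A broad peak required in every library left 2 higher in each of the 4 contrasts with B-ALL alone and 0 lower between TP2 and TP1 in A/B, and promoter peaks only left 3 and 0, with 11 and 12 members tested. A call in every replicate of a group alone left 3 higher at TP1 and 2 at TP2 for either parental line, and one in every replicate of a TP2 group left 1 lower at TP2 against TP1 in A/B, since members called only in the other condition then drop out. Without the fold threshold 15 were higher and 4 lower at TP1 in A/B (background 19.2% and 24.8% of all tested peaks), and 13 and 3 at TP2 (14.8% and 16%). At TP2 against TP1 in A/B it gave 1 higher and 9 lower (9.59% and 9.44%). In C/D it gave 14 higher and 1 lower at TP1 (9.34% and 5.1%), and 14 higher at TP2 (18.5%). At TP2 against TP1 in C/D it gave 1 higher and 5 lower (14.1% and 13.6%). In A/B the TP1 count of lower peaks became 1 with the loess offset, 1 without A 9.6 and 1 in experiment 9.5 alone. At TP2, 5 were higher without A 9.5 and 5 in experiment 9.7 alone. At TP2 against TP1, experiment 9.6 alone gave 1 higher and experiment 9.5 alone 2 lower. In C/D at TP2, 3 were higher without C 9.5 and 3 without D 9.5, and 8 in experiment 9.7 alone, while experiment 9.5 alone and experiment 9.7 alone each gave 1 lower. Between TP2 and TP1, experiment 9.5 alone gave 3 higher, and experiment 9.7 alone gave 2 higher and 5 lower. The cause of these moves was not tested. Leaving out each replicate number in turn gave 9 to 9 higher at TP1 and 7 to 8 at TP2 in A/B, 5 to 6 and 4 to 6 in C/D, 0 to 2 lower at TP1 and 3 to 5 lower between TP2 and TP1 in A/B, and 0 to 1 differences of A/B from C/D at TP1. The difference at TP1 gave 1 peak in place of 2 under the replicate block, and at TP2 1 in place of 0 with a mean CPM of 1 as the filter. The block changed no other count of calls. Its numbers do not pair the libraries: in 94 of 248 comparisons a library correlated best with its own number.

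Summed over the 7 start peaks, scaling over all 256400 peaks in place of the tested peaks gave 220 in place of 273 CPM at TP1 and 195 in place of 241 CPM at TP2 in A/B + NK, against 171 in place of 199 CPM alone. In C/D it gave 187 in place of 229 and 169 in place of 224 CPM, against 138 in place of 183 CPM alone. With an overlap of at least 50% of the member, 1 peak at TP1, 1 at TP2 and 1 alone was called in every library, in place of 13, 12 and 11. The counts of libraries per peak given above, and their figure, are for the 1-base overlap and do not carry over to this one.

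Of the log2 fold changes of the peaks named in full 1417 kept their direction and call over the alternatives, 27 lost and 23 gained a call, and 41 turned sign. Ifi47 downstream start turned in A/B at TP1 0.048 with the loess offset, 0.055 with a broad peak in every library, 0.021 with promoter peaks only, 0.015 without B 9.5, 0.089 in experiment 9.6 alone, −0.080 to 0.082 without 1 replicate each (from −0.030), in A/B at TP2 0.015 in experiment 9.6 alone, 0.015 in experiment 9.7 alone, −0.13 to 0.017 without 1 replicate each (from −0.081), in C/D at TP1 −0.20 in experiment 9.5 alone, −0.011 without experiment 9.7 (from 0.082) and in C/D at TP2 −0.091 in experiment 9.5 alone, −0.097 in experiment 9.6 alone, −0.055 without experiment 9.7 (from 0.080). The Irgm2 start turned in A/B at TP2 −0.011 in experiment 9.7 alone (from 0.27). Trim7 3′ flank turned in A/B at TP2 0.013 with the loess offset (from −0.11) and in C/D at TP2 −0.0094 without D 9.7, −0.20 in experiment 9.6 alone, −0.037 without experiment 9.7, −0.0042 to 0.058 without 1 replicate each (from 0.041). Gm5431 start turned in A/B at TP2 0.14 in experiment 9.7 alone (from −0.21) and in C/D at TP2 −0.014 without C 9.7, −0.23 in experiment 9.5 alone, −0.089 in experiment 9.6 alone, −0.11 without experiment 9.7 (from 0.11). Irgm2 3′ flank turned in A/B at TP1 −0.17 to 0.020 without 1 replicate each (from −0.11), in A/B at TP2 0.011 with the loess offset, 0.017 with a broad peak in every library, 0.0048 in experiment 9.6 alone, −0.096 to 0.020 without 1 replicate each (from −0.051), in C/D at TP1 −0.060 in experiment 9.5 alone (from 0.050) and in C/D at TP2 −0.10 in experiment 9.5 alone (from 0.14). Irgm1 3′ flank turned in A/B at TP2 −0.19 in experiment 9.7 alone (from 0.69) and in C/D at TP2 −0.61 in experiment 9.7 alone (from 0.78). Ifi47 gene body 3 turned in C/D at TP1 0.064 in experiment 9.7 alone (from −0.26) and in C/D at TP2 0.069 without D 9.5, 0.017 without D 9.6, 0.71 in experiment 9.7 alone, −0.14 to 0.021 without 1 replicate each (from −0.070). Ifi47 gene body 1 turned in C/D at TP2 −0.041 in experiment 9.7 alone (from 0.21). Gm12250 3′ flank turned in C/D at TP2 −0.12 in experiment 9.7 alone (from 1.06). The cause of these turns was not tested. A peak filter by mean CPM added calls at TP1 in A/B at Igtp 3′ flank 1 (1.82), Igtp 3′ flank 2 (1.11) and the Ifi47 3′ flank (1.31). Depth limits the Tgtp1 and Tgtp2 3′ flanks, which had samples without a read.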

Other observations

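As a description, the summed start peaks of the 6 genes were set against every other gene's start peak over the 42 group means, each minus the mean of its line and experiment. These points share libraries and scale, so the correlations carry no test. On the tested-peak scale the most alike of 15496 candidates were Gm10237 (Pearson r 0.943), Ly6a (0.941), Gm12707 (0.940), Gbp10 (0.938) and Olfr753-ps1 (0.937), against a median of −0.146. On the scale over all peaks they were Zbp1 (0.963), H2-T24 (0.959), Gm25696 (0.952), Gm33756 (0.945) and Gm17490 (0.939) of 15465, against a median of 0.502, so no gene was in both lists. Ly6a encodes a GPI-anchored surface protein of lymphocytes and progenitors, and its peak had log2 fold changes of 1.20 and 1.03 at TP1 and TP2 for A/B and 1.03 and 1.10 for C/D.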
